A study of Mus musculus with 1646 samples.

Results

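The Frizzled receptors of the colon mesenchyme were described as a family of 10 genes, *Fzd1* to *Fzd10*, among the 46517 genes of a single-cell count table. The members were the rows whose Ensembl identifiers carry these symbols in the GENCODE vM21 annotation, and all 10 were found. The data came from 1646 cells of the colon of adult male mice aged 10 to 20 weeks, each made into its own SmartSeq2 library, in which full-length cDNA of a single sorted cell is amplified and sequenced. Fluorescent cells without CD31, an endothelial surface protein, were taken from 4 reporter lines on a C57Bl6/J background and filled 9 plates, with 761 PdgfrbGFP cells, 567 Acta2GFP cells, 91 Cspg4dsRED cells and the remaining 13.79% from PdgfraGFP. PdgfraGFP is a nuclear fluorescent protein knocked into the *Pdgfra* gene, whereas the other reporters are transgenes driven by the promoter of the named gene. For Acta2GFP mice the digestion mix also held elastase. No treatment is named, and the groups compared were the authors' clusters. Of all cells, 1307 were fibroblasts, which the authors placed along the crypt as cluster 7 (base, 13.55% of all cells), cluster 5 (base to middle, 25.82%), cluster 1 (middle, 29.34%), cluster 6 (middle to apex, 45 cells) and cluster 2 (apex, 7.96%). The other 20.6% were mural cells. Cluster 4 held the pericytes (8.63%), cluster 3 smooth muscle cells (SMC) of vessels (8.57%) and cluster 8 the interstitial SMC (56 cells).

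Frizzled proteins are multi-pass membrane receptors that bind WNT ligands through a cysteine-rich domain outside the cell. With the co-receptors LRP5 or LRP6 they stabilise β-catenin through Dishevelled proteins, and with other partners they feed into planar polarity and calcium signalling. In the intestine, WNT ligands and R-spondins from the mesenchyme sustain the epithelial stem cells of the crypt base. Frizzled receptors carried by the mesenchymal cells themselves could bind the same WNT ligands, and whether these cells respond was not tested here.

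The coding sequences of the 4 members with most counts are shown around the stretch that encodes the Dishevelled-binding motif of the cytoplasmic tail, because this stretch shows how close the members are. Capitals mark the codons of the lysine and threonine that open the motif and of the tryptophan that closes it. Sequences were read from the GENCODE vM21 transcripts of GRCm38 and run 5′ to 3′ on the coding strand. The stretches lie at chr5:4755694-4755735 on the minus strand (*Fzd1*), chr11:102606361-102606402 on the plus strand (*Fzd2*), chr1:59484595-59484636 on the plus strand (*Fzd7*) and chr7:89408229-89408270 on the plus strand (*Fzd4*), each inside a coding exon.
Fzd1: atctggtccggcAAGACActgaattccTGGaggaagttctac
Fzd2: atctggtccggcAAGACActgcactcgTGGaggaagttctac
Fzd7: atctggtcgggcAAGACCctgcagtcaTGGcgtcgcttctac
Fzd4: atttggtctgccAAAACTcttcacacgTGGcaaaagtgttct

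Translated in full, *Fzd1* shared 81.9% of its aligned residues with *Fzd7* and 80.1% with *Fzd2*, whereas it shared 48.1% with *Fzd4*. *Fzd2* and *Fzd7* shared 79.1%. Outside these 3 members, *Fzd5* and *Fzd8* were the closest pair at 71%, followed by *Fzd9* and *Fzd10* at 66.7%. *Fzd4* was closest to *Fzd10*, at 55.7%, and *Fzd3* to *Fzd6*, at 52.8%. Despite the similarity of the proteins, no stretch of 50 bases, the length of the reads, was shared between the annotated transcripts of *Fzd1*, *Fzd2* or *Fzd7* and those of any other gene, so reads of these members that match without error can be told apart. *Fzd4* shared 0.150% of its stretches with other transcripts. *Fzd5* shared 16.4% with the antisense gene *Gm38058* and *Fzd6* shared 2.12% with the antisense gene *Gm26704*, and counts of these 2 members are uncertain, because no source used here says that strand was considered in counting.

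Promoter windows of RefSeq (GRCm38.p6), from 250 bases before to 50 bases after the annotated start, were held for 6 of the 10 members. Those of *Fzd1* and *Fzd4*, both lower in apex fibroblasts than in the deeper fibroblasts, are shown with that of *Fzd7*, for which no such difference was called. They lie at chr5:4758167-4758466 on the minus strand, chr7:89404116-89404415 on the plus strand and chr1:59481897-59482196 on the plus strand. Capitals mark matches, on either strand, to the GC box (letters GGGCGG), the CCAAT box (its name gives the letters), the TATA box (letters TATAAA) and a core of TCF/LEF sites (letters CTTTGA), and neighbouring GC boxes can share bases.
Fzd1: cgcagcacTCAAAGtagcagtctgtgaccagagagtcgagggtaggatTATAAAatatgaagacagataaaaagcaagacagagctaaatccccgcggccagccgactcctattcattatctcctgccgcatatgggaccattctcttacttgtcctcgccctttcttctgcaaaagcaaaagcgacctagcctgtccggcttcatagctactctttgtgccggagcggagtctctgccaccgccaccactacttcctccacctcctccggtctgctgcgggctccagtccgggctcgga
Fzd4: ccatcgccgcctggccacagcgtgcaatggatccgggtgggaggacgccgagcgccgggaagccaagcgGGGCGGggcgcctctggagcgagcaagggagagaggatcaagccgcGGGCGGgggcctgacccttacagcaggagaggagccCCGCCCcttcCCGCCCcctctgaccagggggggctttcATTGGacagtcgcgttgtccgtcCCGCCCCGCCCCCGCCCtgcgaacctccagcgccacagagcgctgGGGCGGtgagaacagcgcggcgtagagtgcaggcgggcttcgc
Fzd7: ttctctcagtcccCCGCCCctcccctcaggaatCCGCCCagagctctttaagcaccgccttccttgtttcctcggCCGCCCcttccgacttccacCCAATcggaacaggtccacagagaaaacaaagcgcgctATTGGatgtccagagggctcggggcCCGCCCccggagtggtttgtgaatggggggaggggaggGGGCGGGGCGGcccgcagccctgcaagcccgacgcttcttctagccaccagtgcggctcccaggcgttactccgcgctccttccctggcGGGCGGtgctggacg

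The windows of the members differed in base composition. The *Fzd4* window held 8 GC boxes and 1 CCAAT box at 72.7% G and C, and the *Fzd7* window held 7 GC boxes and 2 CCAAT boxes at 66.7%. The *Fzd1* window held neither, but 1 TATA box and 1 TCF/LEF core, at 54%. Of all 32851 promoter windows in the table, 35.7% held a GC box, 37.4% a CCAAT box, 13.6% a TATA box and 16% the TCF/LEF core, and the median G and C content was 52.7%. A match describes letters in a window and not a site in use.

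A cell had between 47598 and 1494292 counts on genes, and cluster medians lay between 118252 (interstitial SMC) and 359677 (vascular SMC). Counts of each cell were scaled to 500000 and averaged over the cells of a cluster within a reporter line. Levels are given as the mean ± SD over lines with at least 10 cells of the cluster. Since no label gives the mouse a cell came from, a line was taken as the sample, and p-values measure only the spread between lines, which includes differences in strain and dissociation. Defining markers, given singly as means over the cells of a cluster and summed as levels by line, were set beside the cluster names. *Col1a1* had 1694 to 2317 counts per 500000 over the fibroblast clusters and 111.4 to 540.0 over the mural clusters, *Cd34* was highest in cluster 7 (1419), *Tnc* in cluster 2 (1985), *Rgs5* in pericytes (3120) and *Myh11* in both SMC clusters (1748 and 1880). Of the endothelial markers, *Cdh5* stayed at or below 0.717 in every cluster, whereas *Tek* reached 196.1 in cluster 7 and 112.1 in cluster 5. The list for the crypt base did not follow the name throughout. *Wnt2* was highest in cluster 7 like *Cd34* (83.5), but *Sfrp1* had 89.1 in cluster 7 against 555.3 in cluster 1, and *Wnt2b* 19.2 against 87.4.

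The family was represented mainly by *Fzd1*, *Fzd4*, *Fzd7* and *Fzd2*, with 139681, 38654, 27659 and 23865 counts over all cells and a count in 76%, 54.9%, 46.2% and 47.6% of the cells. *Fzd5* (2776 counts), *Fzd8* (2734) and *Fzd3* (2189) were found in 8.51%, 11.4% and 4.98% of the cells, and *Fzd6*, *Fzd10* and *Fzd9* in 3.52%, 0.729% and 0.729%. Only levels divided by the exon length of each gene can be compared between genes. On this scale, in counts per 500000 per kb, the 10 members summed to 86.1 in middle fibroblasts, 49.6 in base to middle, 37.02 in base, 32.2 in middle to apex and 12.6 in apex fibroblasts. The sums were 28.01 in vascular SMC, 22.98 in interstitial SMC and 16.7 in pericytes.

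The member that made up most of the summed level changed with the cluster. *Fzd1* made up 77.3% of it in middle fibroblasts and between 47.8% and 65.5% in the base, base to middle and apex clusters. *Fzd2* came first in the middle to apex cluster, with 56.5%. *Fzd7* came first in vascular SMC, with 46.8%, followed by *Fzd4* with 25.9%, whereas *Fzd1* made up 5.39% there. By line, *Fzd7* came first in vascular SMC of the Acta2GFP (57.2%) and PdgfrbGFP (56.7%) lines and *Fzd4* in those of the Cspg4dsRED line (48.3%).

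**Figure D1:**
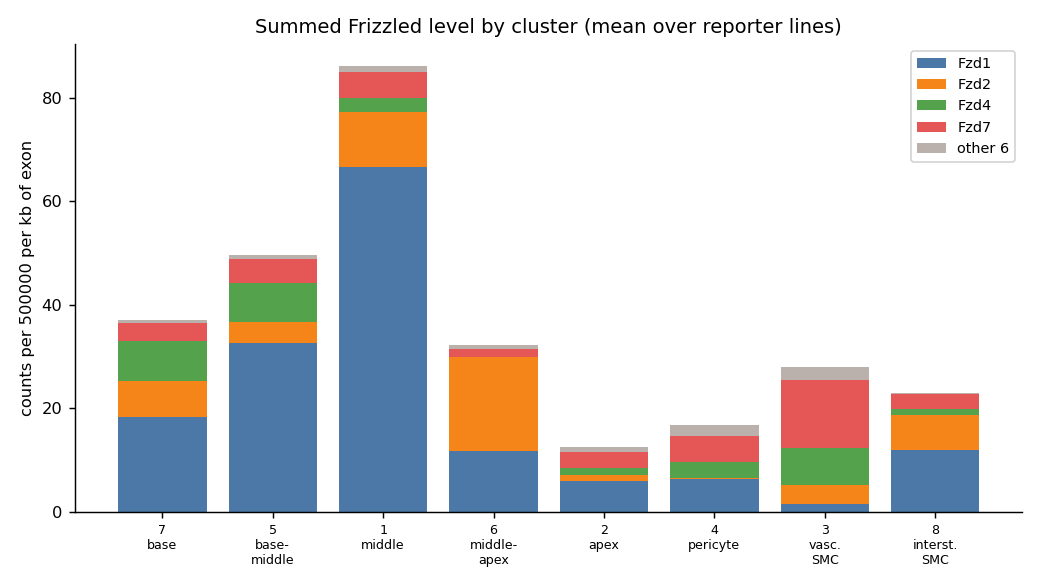
Stacked bars give the level of each Frizzled gene in counts per 500000 per kb of exon, as the mean over reporter lines, for the 8 clusters in the order base to apex and then mural cells; the other 6 members are pooled. The total is highest in cluster 1 (86.1), where *Fzd1* fills most of the bar, and *Fzd7* fills the largest part in vascular SMC.

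*Fzd1* (ENSMUSG00000044674, chromosome 5 from 4753839 to 4758035 of GRCm38, minus strand, a single exon) encodes a receptor of the β-catenin branch that is close to *Fzd2* and *Fzd7*. In middle fibroblasts it had 216.3 counts per 500000 in the Acta2GFP line, 315.7 in PdgfraGFP and 306.2 in PdgfrbGFP. In base to middle fibroblasts it had 136.6 (Acta2GFP), 112.3 (Cspg4dsRED), 190.3 (PdgfraGFP) and 106.6 (PdgfrbGFP). In base fibroblasts it had 60.6, 102.4 and 68.5 in Acta2GFP, PdgfraGFP and PdgfrbGFP. The 3 clusters did not overlap, and the order middle, base to middle, base held in each of the 3 lines that had all of them.

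Beyond the middle of the crypt, *Fzd1* was low. It had 36.2 and 61.6 counts per 500000 in middle to apex fibroblasts (Acta2GFP, PdgfraGFP) and 19.6, 20.5 and 35.4 in apex fibroblasts (Acta2GFP, PdgfraGFP, PdgfrbGFP). In mural cells it was lowest in vascular SMC, at 8.78 (Acta2GFP), 3.94 (Cspg4dsRED) and 6.28 (PdgfrbGFP). Pericytes had 40.7 (Cspg4dsRED) and 12.01 (PdgfrbGFP), and interstitial SMC had 49.6 in the 1 line with enough cells, Acta2GFP. The levels of interstitial SMC, middle to apex fibroblasts, pericytes and apex fibroblasts overlapped between neighbours in this order, and vascular SMC lay below them.

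*Fzd4* (ENSMUSG00000049791, chromosome 7 from 89404355 to 89413134, plus strand, 2 exons) encodes the receptor for norrin as well as WNT ligands and is best known from the growth of retinal vessels. In base fibroblasts it had 53.8 (Acta2GFP), 68.6 (PdgfraGFP) and 37.01 (PdgfrbGFP) counts per 500000. In base to middle fibroblasts it had 61.2 (Acta2GFP), 43.98 (Cspg4dsRED), 42.2 (PdgfraGFP) and 52.9 (PdgfrbGFP). In middle fibroblasts it had 25.5, 6.51 and 21.1 in Acta2GFP, PdgfraGFP and PdgfrbGFP. *Fzd4* thus overlapped between the base and the base to middle cluster, and every line of both lay above every line of the middle cluster.

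Toward the apex *Fzd4* had 1.03 and 1.23 counts per 500000 in middle to apex fibroblasts (Acta2GFP, PdgfraGFP) and 6.67, 13.2 and 3.91 in apex fibroblasts (Acta2GFP, PdgfraGFP, PdgfrbGFP). In vascular SMC its level depended on the line, with 16.6 in Acta2GFP, 92.5 in Cspg4dsRED and 37.1 in PdgfrbGFP. Pericytes had 24.2 (Cspg4dsRED) and 18.6 (PdgfrbGFP), and interstitial SMC had 7.13. *Fzd4* is a gene of endothelial cells too, so the 5 endothelial markers were set beside it. Their summed level ran from 6.57 to 14.97 over the vascular SMC of the 3 lines, and was 14.3 in the Cspg4dsRED line. In base and base to middle fibroblasts the sum ran from 111.3 to 228.2, against 17.4 to 26.7 in the middle cluster, and *Tek*, at 196.1 and 112.1 in clusters 7 and 5, carried most of it, whereas *Pecam1*, *Cdh5*, *Kdr* and *Cldn5* each stayed at or below 8.40 in these clusters. The part of endothelial RNA in the *Fzd4* level of fibroblasts was not tested beyond these values.

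*Fzd2* (ENSMUSG00000050288, chromosome 11 from 102604396 to 102608058, plus strand, a single exon) encodes a receptor known for responding to WNT5A as well as to β-catenin ligands. It had its highest levels in middle to apex fibroblasts, with 33.7 (Acta2GFP) and 99.3 (PdgfraGFP) counts per 500000, and in middle fibroblasts, with 47.9 (Acta2GFP), 30.5 (PdgfraGFP) and 39.2 (PdgfrbGFP), and these clusters overlapped. The middle to apex cells also stood apart in the 5 smooth muscle markers, with a summed level of 1779 (Acta2GFP) and 590.6 (PdgfraGFP), against 117.4 to 329.4 over the lines of middle and 102.1 to 320.2 over those of apex fibroblasts. *Acta2* (802.9) and *Tagln* (193.7) carried most of it, and *Cnn1* (1.28) and *Des* (2.35) were low. The 5 pericyte markers summed to 209.1 and 241.7 in these lines, against 102.8 to 132.9 in middle and 35.7 to 48.5 in apex fibroblasts, with *Kcnj8* at 126.2, *Abcc9* at 109.3 and *Rgs5* at 3.78. These markers did not follow *Fzd2* throughout. Of the middle to apex cells, those of Acta2GFP had the higher smooth muscle sum and the lower *Fzd2* level. In Acta2GFP, *Fzd2* was also lower in middle to apex (33.7) than in middle fibroblasts (47.9). The part of these markers in the *Fzd2* level was not tested. In apex fibroblasts, the neighbours of the middle to apex cells, *Fzd2* had 1.32 (Acta2GFP), 0.125 (PdgfraGFP) and 11.3 (PdgfrbGFP). The 2 lines with both clusters thus had at least 33.7 on one side and at most 1.32 on the other. Base fibroblasts varied between lines, with 10.1, 49.5 and 14.96 in Acta2GFP, PdgfraGFP and PdgfrbGFP, and no count was found in the 13 base to middle cells of the Cspg4dsRED line, while the other lines had 13.2 to 27.4. In mural cells *Fzd2* had 10.5 to 15.9 in vascular SMC, 25.3 in interstitial SMC and 0.173 and 1.33 in pericytes.

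*Fzd7* (ENSMUSG00000041075, chromosome 1 from 59482424 to 59486955, plus strand, a single exon) encodes a receptor known from the stem cells of the intestinal epithelium. Its means lay close together in the 4 larger fibroblast clusters, at 15.7 ± 3.54 in base, 20.8 ± 8.87 in base to middle, 22.96 ± 9.34 in middle and 14.5 ± 0.150 in apex fibroblasts (SD, n = 3, 4, 3 and 3 lines). The apex lines lay closer together than their plates, which ran from 0.396 to 43.4 within PdgfrbGFP and had 8.63 and 19.3 in PdgfraGFP. In apex cells of 3 plates the *Fzd7* level went with the raw *Fzd7* counts summed over all other cells in the same plate row or column. The mean of Spearman's rho was 0.221 (0.0469 to 0.419 by plate), and the part of exchange between wells was not tested. In middle to apex fibroblasts *Fzd7* had 13.3 (Acta2GFP) and 0.284 (PdgfraGFP). Vascular SMC had 64.8 (Acta2GFP), 35.04 (Cspg4dsRED) and 78.4 (PdgfrbGFP), and every line lay above every line of every other cluster. Pericytes had 19.2 and 26.5, and interstitial SMC 13.4. Over the 5 plates with at least 10 vascular SMC, the *Fzd7* level ran from 35.04 on the plate of the Cspg4dsRED line to 68.97, and the value of the PdgfrbGFP line lies above this range because it also holds cells of plates with fewer vascular SMC.

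**Figure D2:**
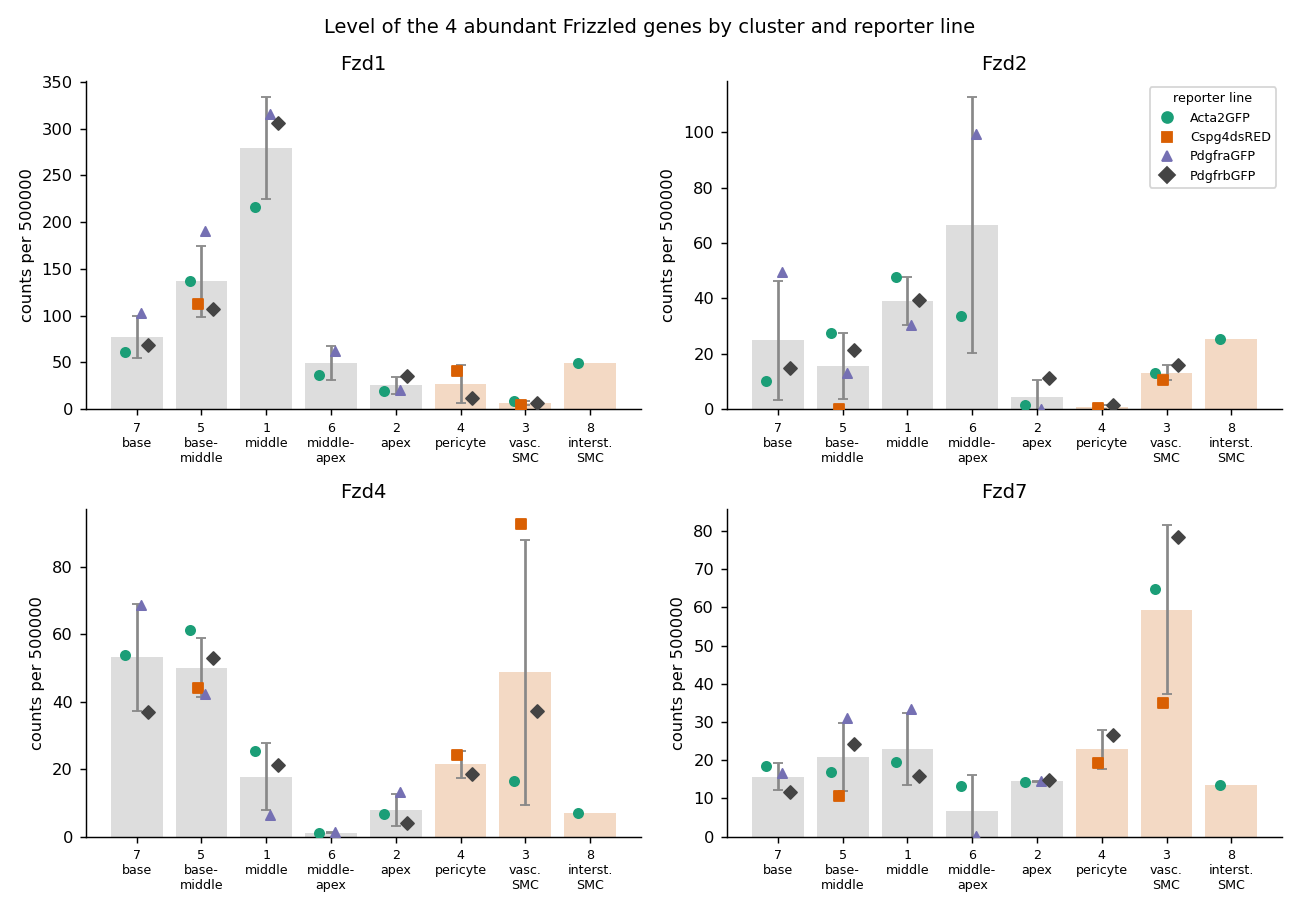
Each panel gives the level of a gene in counts per 500000 (vertical axis, own scale per panel) for the 8 clusters; points are reporter lines with at least 10 cells of the cluster, bars the mean over lines and error bars the SD. *Fzd1* peaks in cluster 1, *Fzd4* in clusters 7 and 5 and in vascular SMC, *Fzd2* in clusters 6 and 1, and *Fzd7* in vascular SMC.

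The remaining members were found at low levels. *Fzd3* (chromosome 14 from 65192449 to 65262463) and *Fzd6* (chromosome 15 from 39006034 to 39038188), both known from planar polarity, averaged at most 4.42 and 1.60 counts per 500000 in any cluster. The *Fzd3* maximum, in base to middle fibroblasts, rested on the PdgfraGFP line, with 13.6 against 0.283 to 3.08 in the other lines. The *Fzd6* mean of vascular SMC rested on the Acta2GFP line, with 4.68 there against at most 0.0853 in the other 2 lines, and on 1 cell that held 54.4% of all counts of the gene. *Fzd5* (chromosome 1 from 64730558 to 64737751), known from Paneth cell maturation in the epithelium, averaged 3.55 at most, in vascular SMC, with 8.23 in Acta2GFP against 0.177 and 2.25 in the other lines. *Fzd8* (chromosome 18 from 9212163 to 9218136) averaged at most 5.35, in pericytes, with 10.12 in Cspg4dsRED against 0.585 in PdgfrbGFP, and had 3.86 to 4.27 over the 3 lines of middle fibroblasts. *Fzd9* (chromosome 5 from 135248938 to 135251230) and *Fzd10* (chromosome 5 from 128600844 to 128604093) had a count in 12 cells each. Of the counts of *Fzd9*, 85.6% came from 1 cell, and *Fzd10* was counted in 8 fibroblasts and 4 mural cells, the highest of which held 46.6% of its counts.

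Shares of cells with a count were compared after thinning each cell to 50000 counts, which left out 11 shallower cells (6 fibroblasts and 5 mural cells). Clopper-Pearson intervals of 95% are given and cover counting error over cells only. They treat cells as independent and leave out the spread between plates, lines and mice. Reads without molecular identifiers are also not independent molecules. *Fzd1* was found in 88.98% of middle fibroblasts (85.8 to 91.6), 74.1% of base to middle fibroblasts (69.6 to 78.2), 62.3% of base fibroblasts (55.5 to 68.7) and 31.3% of apex fibroblasts (23.5 to 39.98). It was found in 12.9% of vascular SMC (7.80 to 19.6). Unthinned, the share was 86% of fibroblasts and 37.5% of mural cells, and 9.73% of mural cells had 10 or more counts. The share of mural cells was therefore in part a share of cells with a few counts. On 5 plates the *Fzd1* level of mural cells went with the raw *Fzd1* counts summed over all other cells in the same plate row or column. Spearman's rho was 0.294 as the mean over plates and 0.120 to 0.509 by plate, a description across cells. Such sums also depend on the number, type and depth of those cells. The part of exchange between wells in the level was not tested.

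For *Fzd4* the thinned share was 48.4% in base to middle (43.5 to 53.2), 46.4% in base (39.6 to 53.2), 28.9% in middle (24.9 to 33.2), 19.1% in apex (12.8 to 26.9) and 15.6% in middle to apex fibroblasts (6.49 to 29.5). *Fzd7* was found in 63.6% of vascular SMC (55.02 to 71.5), against 24.3% of pericytes (17.4 to 32.3) and 18.5% of interstitial SMC (9.26 to 31.4). *Fzd2* was found in 48.9% of middle to apex (33.7 to 64.2) and 44.1% of middle fibroblasts (39.6 to 48.6), but in 9.16% of apex fibroblasts (4.82 to 15.5) and 2.86% of pericytes (0.784 to 7.15). *Fzd9* was found in 0 of 220 base fibroblasts, for which 3 of the 220 cells give a limit of 1.36% on the share with a count and the Clopper-Pearson interval an upper bound of 1.66%.

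**Figure D3:**
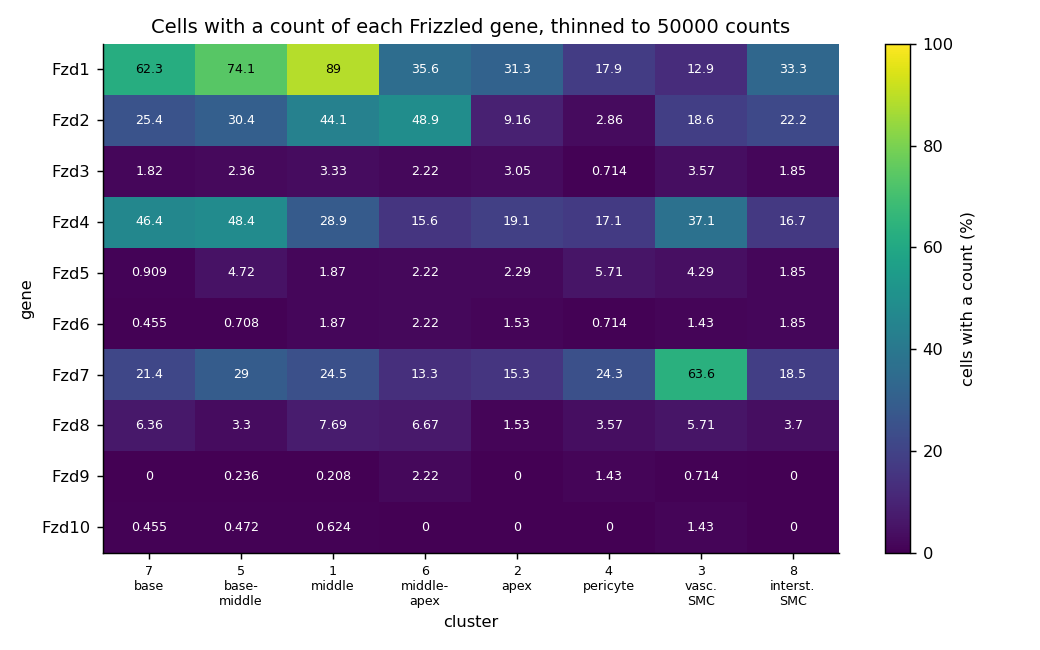
The grid gives the share of cells (%) with at least 1 count of each of the 10 members (rows) in each cluster (columns), after thinning to 50000 counts per cell. The brightest fields are *Fzd1* in cluster 1 (88.98%), *Fzd1* in cluster 5 (74.1%) and *Fzd7* in vascular SMC (63.6%).

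Most fibroblasts held more than 1 member. Of the thinned middle fibroblasts 3.12% had no Frizzled count, 30.8% had counts of 1 member, 34.7% of 2 and 31.4% of 3 or more, with a mean of 2.02 members per cell. Apex fibroblasts had 0.832 members per cell, and 38.2% of them had none. Vascular SMC had 1.49, interstitial SMC 1.00 and pericytes 0.743 members per cell. *Fzd1* and *Fzd4* occurred together in 38.2% of base to middle cells, where 35.8% would have both if the genes were unrelated. The corresponding values were 30% and 28.9% in base cells and 25.99% and 25.7% in middle cells. In these 3 clusters *Fzd1* and *Fzd4* were thus found in the same cells about as often as their single shares give. The share with both was above that value in pericytes (6.43% against 3.06%, 9 cells) and in interstitial SMC (11.1% against 5.56%, 6 cells), which rests on few cells.

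Because *Fzd1* and *Fzd4* followed different courses along the crypt, their ratio was taken within each line, per kb of exon, a measure chosen after the values had been seen. *Fzd1* exceeded *Fzd4* by a factor of 1.80 (Acta2GFP), 2.39 (PdgfraGFP) and 2.96 (PdgfrbGFP) in base fibroblasts. In middle fibroblasts the factor was 13.6 (Acta2GFP), 77.6 (PdgfraGFP) and 23.2 (PdgfrbGFP). On the log2 scale the ratio was 1.22 ± 0.359 in base (SD, n = 3), 2.10 ± 0.518 in base to middle (n = 4) and 4.86 ± 1.29 in middle fibroblasts (n = 3). It was lower in base than in middle fibroblasts in 3 of 3 lines (difference -3.64). Base to middle differed from middle fibroblasts by -2.76, and base from base to middle fibroblasts by -0.88, each in the same direction in 3 of 3 lines. These differences are a description without a test. In vascular SMC *Fzd4* lay above *Fzd1* in 3 of 3 lines, closely so in Acta2GFP (log2 ratio -0.24). On 1 of the 2 Acta2GFP plates the order was the other way, since *Fzd1* had 12.7 and *Fzd4* 9.42 counts per 500000 before division by length.

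**Figure D4:**
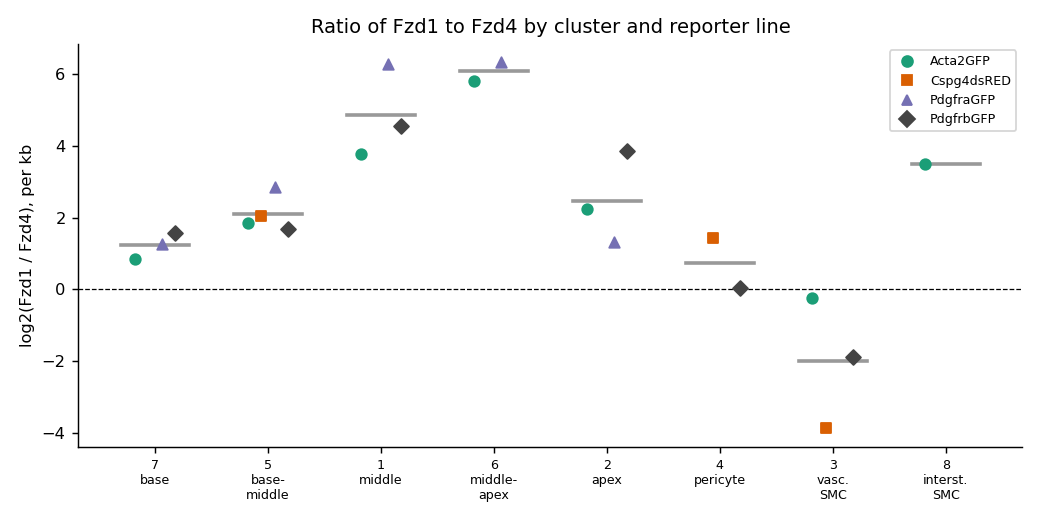
The vertical axis gives log2 of the ratio of *Fzd1* to *Fzd4*, both per kb of exon, for each reporter line (points) and as the mean over lines (grey bar) in the 8 clusters; the dashed line marks equal levels. The ratio climbs from 1.22 in base to 4.86 in middle fibroblasts and lies below 0 in the 3 lines of vascular SMC.

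Which members separate fibroblasts from mural cells was tested on sums of raw counts, with 4 lines of fibroblasts and 3 of mural cells, in edgeR's quasi-likelihood test across 19173 genes. *Fzd1* was higher in fibroblasts, with 132.6, 159.7, 164.3 and 180.3 counts per 500000 in Acta2GFP, Cspg4dsRED, PdgfraGFP and PdgfrbGFP, against 33.8, 23.2 and 9.54 in the mural cells of Acta2GFP, Cspg4dsRED and PdgfrbGFP. The groups did not overlap, and *Fzd1* was higher in fibroblasts in 3 of 3 lines and 6 of 6 plates with both (log2 fold change 2.95 ± 0.431 (SE), adjusted p = 0.00417, edgeR with Benjamini-Hochberg adjustment). It was the 1 member called of 8 tested, and 6.57% of all genes were called. With the reporter line as a block *Fzd1* remained called (adjusted p = 0.0349, edgeR), while the calls over all genes fell from 1259 to 590.

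*Fzd7* leaned the other way without passing the test. It had 18.01, 12.5, 23.2 and 18.4 counts per 500000 in the fibroblasts of Acta2GFP, Cspg4dsRED, PdgfraGFP and PdgfrbGFP and 30.7, 26.7 and 49.2 in mural cells of Acta2GFP, Cspg4dsRED and PdgfrbGFP, without overlap, and was lower in fibroblasts in 6 of 6 plates (log2 fold change -1.41 ± 0.412, adjusted p = 0.0763, edgeR). Without the Cspg4dsRED line it passed (adjusted p = 0.0238), as it did in DESeq2 and with plates as samples. *Fzd4* (-0.05 ± 0.517, adjusted p = 0.977) and *Fzd2* (0.98 ± 0.541, adjusted p = 0.367) overlapped between the classes and were not called, although *Fzd2* was higher in fibroblasts in 3 of 3 lines and 6 of 6 plates with both. *Fzd3*, *Fzd5*, *Fzd6* and *Fzd8* were not called, and *Fzd9* and *Fzd10* did not pass the filter on low counts. The median log2 fold change was -0.78 over the 8 members tested and -0.03 over all genes. This median lies between the values of 2 low members, *Fzd3* (-0.88 ± 1.42) and *Fzd5* (-0.69 ± 1.04), and is not a summed level. The 10 members summed to 53.5 counts per 500000 per kb in fibroblasts and 22.6 in mural cells.

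How the family differs at the apex was tested between apex fibroblasts (3 lines) and the pooled base, base to middle and middle fibroblasts (4 lines) over 15893 genes, of which 7.26% were called. *Fzd1* had 146.4, 159.97, 237.8 and 189.7 counts per 500000 in the deeper fibroblasts of Acta2GFP, Cspg4dsRED, PdgfraGFP and PdgfrbGFP, above all apex values, and was lower at the apex in 5 of 5 plates (log2 fold change -2.29 ± 0.355, adjusted p = 0.00531, edgeR). *Fzd4* had 44.5, 26.5, 28.8 and 36.5 in the deeper fibroblasts, also above all apex values, and was lower at the apex in 5 of 5 plates (-2.22 ± 0.482, adjusted p = 0.0236, edgeR). These were the 2 members called of 7 tested. The *Fzd4* call was lost without the Acta2GFP line (adjusted p = 0.234), without the PdgfrbGFP line (0.112), with the line as a block (0.0583) and with means per cell in limma (0.224), and the *Fzd1* call was lost without the Acta2GFP line (0.0664).

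*Fzd2* had a larger difference at the apex than *Fzd1* and *Fzd4*, with a larger error (log2 fold change -2.91 ± 1.13, adjusted p = 0.176, edgeR). It was lower in 3 of 3 lines and 5 of 5 plates, and it passed in DESeq2 (adjusted p = 0.0333), with plates as samples in edgeR (adjusted p = 0.00747) and in edgeR without PdgfrbGFP (adjusted p = 0.0304), the line with 11.3 counts per 500000 at the apex. *Fzd7* did not differ beyond its error (-0.08 ± 0.509, adjusted p = 0.956). *Fzd3*, *Fzd5* and *Fzd8* were not called and *Fzd6*, *Fzd9* and *Fzd10* were not tested. The median log2 fold change was -0.59 over the 7 members tested, which is the value of the low member *Fzd5* (SE 1.3), and 0.00 over all genes. The summed level of the 5 endothelial markers was 5.27 to 24.4 over the lines of apex fibroblasts and 85.4 to 113.9 over those of the deeper fibroblasts. *Tek* made up nearly all of this difference, with 1.79 against 86.3, whereas *Pecam1* had 8.40 against 7.85, *Kdr* 1.13 against 1.38 and *Cdh5* 0.225 against 0.272. *Cldn5* was low in both, with 0.853 against 3.22.

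**Figure D5:**
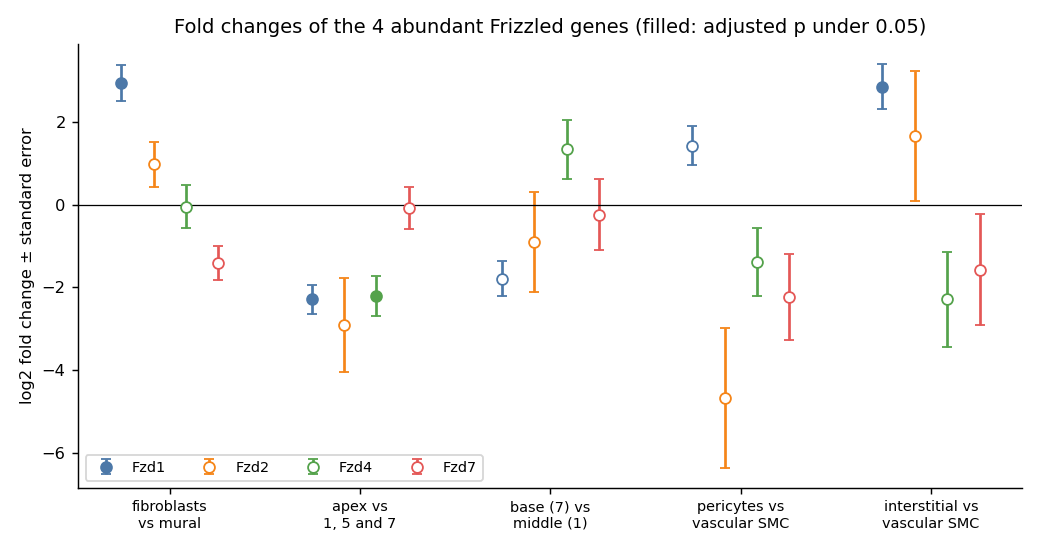
Points give the log2 fold change of *Fzd1*, *Fzd2*, *Fzd4* and *Fzd7* in 5 comparisons with the standard error from edgeR; filled points have an adjusted p under 0.05. The 4 filled points are *Fzd1* in fibroblasts against mural cells (2.95), *Fzd1* and *Fzd4* at the apex (-2.29 and -2.22) and *Fzd1* in interstitial against vascular SMC (2.85).

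Between base and middle fibroblasts no member was called by edgeR among 10 tested, with 0.488% of 21739 genes called. All clusters entered this fit with 1 estimate of the spread. *Fzd1* was lower in base fibroblasts in 3 of 3 lines and 5 of 5 plates (log2 fold change -1.79 ± 0.434, adjusted p = 0.0774, edgeR) and was the 1 member with an unadjusted p under 0.05. It was called in DESeq2, with plates as samples, with means per cell in limma and without the Cspg4dsRED line (adjusted p = 0.0221), so this comparison lies at the threshold. *Fzd4* was higher in base fibroblasts in 3 of 3 lines and 5 of 5 plates without passing (1.34 ± 0.711, adjusted p = 0.614). Lines of *Fzd8* did not overlap either, with 0.913 to 3.51 counts per 500000 in base against 3.86 to 4.27 in middle fibroblasts, and it was not called (adjusted p = 1.00). The other 7 members had adjusted p-values of 0.802 to 1.00 (edgeR). With the line as a block 0.773% of genes were called and no member (*Fzd1* adjusted p = 0.0536, edgeR).

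Between pericytes (2 lines) and vascular SMC (3 lines) no member was called by edgeR among 10 tested, with 0.819% of genes called. *Fzd1*, *Fzd2*, *Fzd6* and *Fzd7* were the 4 members with an unadjusted p under 0.05. *Fzd7* had a log2 fold change of -2.24 ± 1.05 (adjusted p = 0.386, edgeR) and *Fzd2* of -4.67 ± 1.69 (adjusted p = 0.253, edgeR), and lines of the clusters did not overlap for either gene. *Fzd2* was called in DESeq2 and *Fzd7* in limma. *Fzd1* had a log2 fold change of 1.43 ± 0.469 (adjusted p = 0.208, edgeR). Its lines did not overlap either, and it was higher in pericytes in 2 of 2 lines and 3 of 3 plates. *Fzd4* had -1.38 ± 0.820 (adjusted p = 0.521, edgeR). *Fzd6* had -5.82 ± 2.34 (adjusted p = 0.307, edgeR), which rested on the Acta2GFP line of vascular SMC, since the value without that line was -0.08. The members *Fzd3*, *Fzd5*, *Fzd8*, *Fzd9* and *Fzd10* had adjusted p-values of 0.667 to 1.00 (edgeR). The fibroblast markers summed to 738.4 and 1768 in the lines of pericytes, against 113.9 to 723.7 in vascular SMC, with *Dcn* at 931.8 against 144.9, and their part in these differences was not tested.

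Interstitial SMC were compared with vascular SMC on the 1 line with enough cells, whose spread is assumed to be that of the other clusters. *Fzd1* was higher in interstitial SMC (log2 fold change 2.85 ± 0.544, adjusted p = 0.00859, edgeR), with 49.6 counts per 500000 against 8.78, 3.94 and 6.28 in vascular SMC, and it was the 1 member called of 10 tested, with 1.01% of genes called. Within the Acta2GFP line it was higher on both plates, at 55.5 and 30.2 against 2.40 and 12.7. The 4 interstitial SMC of the PdgfrbGFP line had 12.3, and with sums of at least 3 cells the call was lost (adjusted p = 0.162). It was also lost without the PdgfrbGFP line (0.0801) and with means per cell in limma (0.893). The 5 fibroblast markers were higher in interstitial SMC too, with a summed level of 1185 against 113.9 to 723.7 over the lines of vascular SMC (*Col1a1* 540.0 against 111.4, *Dpt* 143.1 against 21.4 as means), and their part in the *Fzd1* difference was not tested. *Fzd7* (-1.58 ± 1.34, adjusted p = 0.824, edgeR), *Fzd4* (-2.29 ± 1.15, adjusted p = 0.568, edgeR), *Fzd2* (1.65 ± 1.58, adjusted p = 0.860, edgeR) and *Fzd8* (-2.08 ± 2.79, adjusted p = 0.941, edgeR) were not called, although *Fzd7* was in limma (adjusted p = 0.0159). The 4 interstitial SMC of the PdgfrbGFP line had 39.4 counts per 500000 of *Fzd7*. Those of Acta2GFP had 13.4, and the lines of vascular SMC 35.04 to 78.4. Over the alternatives the log2 fold change of *Fzd7* ran from -2.61 to -0.12. Interstitial SMC of the Acta2GFP line held 1 count each of *Fzd3* and *Fzd5* and 0 of *Fzd6*, *Fzd9* and *Fzd10*, so no fold is given for these members.

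The genes around the receptors were followed in 8 lists of WNT pathway genes with 71 genes in all. Between fibroblasts and mural cells 54 were tested, of which 5 were higher and 1 lower in fibroblasts, where 6.57% of all genes were called. Among the WNT ligands 4 of 10 tested were higher, namely *Wnt11* (log2 fold change 6.81), *Wnt2* (6.10), *Wnt9a* (5.79) and *Wnt5a* (2.84), with a median of 3.59 over the list. The *Wnt5a* call held in 5 of 10 alternatives and was lost with the line as a block (adjusted p = 0.0587, edgeR), and the other called genes of this comparison held in 7 to 9 of 10. Of the feedback targets and factors *Lef1*, a transcription factor of the pathway, was higher (6.76) and *Nkd1*, which restrains Dishevelled, was lower (-4.95). *Lef1* was high only in apex fibroblasts, at 113.8 counts per 500000. Its means were 0.2515 to 1.584 in the other fibroblast clusters and 0.192 in mural cells. *Wnt5a* was high in apex and middle to apex fibroblasts. It had 17.04 in base, 26.68 in base to middle and 10.54 in middle fibroblasts, against 17.91 ± 10.59 in mural cells (SD). Neither difference thus describes fibroblasts in general. *Nkd1* had 233.6 ± 7.68 counts per 500000 in vascular SMC (SD, n = 3), the cells with most *Fzd7*. It also had 157.7 in interstitial SMC (1 line), where *Fzd7* had 13.4. In fibroblasts *Nkd1* had 44.5 ± 11.99 in apex, 4.06 ± 2.8 in middle and 0.914 ± 0.780 in base cells (n = 3 each). None of the tested co-receptors (6), Fzd4 and WNT7 partners (3), regulators of receptor turnover (7), transducers (8), polarity partners (6) and secreted antagonists (9) was called.

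At the apex 50 pathway genes were tested, of which 7 were higher and 7 lower, where 7.26% of all genes were called. The 8 with the largest changes were *Lef1* (8.52), the R-spondin receptor *Lgr5* (8.43), the R-spondins *Rspo1* (-6.29) and *Rspo3* (-5.31), the antagonist *Sfrp4* (-5.59), and the ligands *Wnt2* (-5.44), *Wnt2b* (-5.04) and *Wnt5a* (4.92), as log2 fold changes. *Lef1*, *Lgr5* and *Wnt5a* were called in 10 of 10 alternatives, and the other 5 in 6 to 9 of 10, the call of each being lost without the Acta2GFP line. *Wnt5a* had 273.3 ± 66.9 counts per 500000 in middle to apex fibroblasts (SD, n = 2), against 10.5 ± 7.46 in middle fibroblasts (n = 3), so that it was high in the middle to apex cluster as well. *Fzd2*, in contrast, had 66.5 ± 46.4 in middle to apex and 4.26 ± 6.15 in apex fibroblasts. The co-receptor *Lrp6*, named here after its values were seen, was lower at the apex like *Fzd1* and *Fzd4* (-2.05 ± 0.412, adjusted p = 0.0173, edgeR), with 17 ± 3.67 in apex and 54.5 ± 7.59 in middle fibroblasts (n = 3 each). The other called gene of this list, *Ptk7*, was higher at the apex (1.70 ± 0.401, adjusted p = 0.0336, edgeR), and the other 4 of the 6 were not called. The calls of *Lrp6* and *Ptk7* each held in 6 of 10 alternatives.

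The other comparisons had fewer calls over all genes. Between base and middle fibroblasts 1 of 60 tested was called (0.488% of all genes), *Wnt4* (log2 fold change -5.77), which had 19.8 ± 3.85 counts per 500000 in middle and 0.406 ± 0.245 in base fibroblasts (SD, n = 3 each). Its call held in 5 of 10 alternatives and was lost with the line as a block (adjusted p = 0.0513, edgeR). Between pericytes and vascular SMC *Wnt5a* (3.47) and the antagonist family member *Dkk3* (3.39) were higher and the WNT5A receptor *Ror1* (-4.66) was lower in pericytes, 3 of 60 tested, where 0.819% of all genes were called. These calls held in 5, 4 and 2 of 10 alternatives, and with the line as a block those of *Dkk3* (adjusted p = 0.0631, edgeR) and *Ror1* (adjusted p = 0.0673, edgeR) were lost. In interstitial against vascular SMC the receptor-like kinase *Ptk7* (5.79), *Wnt5a* (5.29), *Dkk3* (5.15) and *Sfrp1* (4.81) were higher, 4 of 60 tested, where 1.01% of all genes were called. Interstitial SMC entered with 1 line, as for *Fzd1*. With sums of at least 3 cells, which add the PdgfrbGFP line, the 4 genes were called, with adjusted p-values of 0.000649 (*Dkk3*) to 0.0283 (*Ptk7*, edgeR), while *Sfrp1* was lost with the line as a block (adjusted p = 0.0862, edgeR) and *Wnt5a*, *Ptk7* and *Sfrp1* with limma. Without the PdgfrbGFP line *Dkk3* and *Sfrp1* were not called.

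The genes most like each member were taken by Pearson's r of log2 counts scaled to the library size over the 21 cluster by line sums, as a description without a test, since sums of a cluster share their cells' identity and sums of a line share plates and depth. For *Fzd1* these were *Gpx7* (0.905), *Ltbp4* (0.900) and *9430069I07Rik* (0.862), for *Fzd4* *Mtpap* (0.886), *Rhoq* (0.880) and *Stbd1* (0.860), for *Fzd7* *Hsd17b4* (0.908), *Ap4s1* (0.891) and *1110032A03Rik* (0.889), and for *Fzd2* *Sync* (0.858), *Zc3hav1l* (0.827) and *Cnksr3* (0.806). Among the members, *Fzd4* and *Fzd7* were most alike (0.631). *Fzd1* had values of 0.302 with *Fzd2* and -0.166 with *Fzd7*, the members it shares most of its protein sequence with. For the 6 low members the values of the most similar genes ran from 0.726 to 0.960 and rest on few cells.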

How the data were processed

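The data are counts of 1646 colon cells, each sequenced as its own library; cells of other organs were not analysed here. Reads were mapped to GRCm38 with TopHat2 and assigned to genes with featureCounts by the authors, who deposited the raw counts. The strand setting is not given in the sources used here. Rows of ERCC spike-in RNA (92 rows, 1.36% of the total) were set aside, and 0 columns were left unused.

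The clusters are those of the authors, who drew them from these counts, so that tests describe the classes. Doublets were not called here; per the study's methods, cells with very many genes were dropped as possible doublets, and the highest number of genes left in a cell was 9961. Raw counts were added up for each class and reporter line with at least 10 cells (2202988 to 217742647 counts per sum). After TMM normalization and filterByExpr, edgeR's quasi-likelihood test was used, with Benjamini-Hochberg adjustment over all genes and calls at 0.05. The SE is the size of the log2 fold change over the square root of its F statistic. Fibroblasts against mural cells and apex against deeper fibroblasts were fitted on their own classes, and the other comparisons in 1 fit of all 21 cluster sums. Levels are per 500000 counts and shares were thinned to 50000 counts. Lengths are those of the merged annotated exons. Translated coding sequences were aligned from end to end with the BLOSUM62 matrix. For limma, log2(count per 500000 + 1) was averaged over cells. The tests were tried on simulated data.

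The text covers the 10 members in every comparison, the low ones by ranges, with up to 8 called pathway genes per comparison by the size of the log2 fold change (*Lrp6* and *Ptk7* at the apex were added after their values were seen), and the 3 genes most like each member. Members and lists were chosen with earlier results of these data known.

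Sums of a line may share mice, so the pairing by line, which comes from the labels, was checked by the correlation of deviations from class means over genes. It was 0.152, 0.166 and 0.175 for fibroblasts and mural cells (Acta2GFP, Cspg4dsRED, PdgfrbGFP) and 0.0965, 0.0851 and 0.115 for apex and deeper fibroblasts (Acta2GFP, PdgfraGFP, PdgfrbGFP). For base and middle fibroblasts of those lines it was 0.127, 0.121 and 0.170, while vascular SMC and pericytes gave 0.179 (Cspg4dsRED) and 0.167 (PdgfrbGFP).

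Software was edgeR 4.0.16, DESeq2 1.42.0 and limma 3.58.1 in R 4.3.3, and biopython 1.88, scipy 1.17.1, pandas 2.3.3 and numpy 2.4.6 in Python 3.11.15.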

Additional observations from a re-analysis of the deposited data

Results flagged for a closer look

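Of 30 groups of 4 reporter lines, 6 had a line farther from the others than Dixon's critical value allows. Chance flags about 1 in 20 independent groups, but these groups are nested, so that the counts cannot be compared. *Fzd2* in fibroblasts was low in the Cspg4dsRED line, at 9.71 counts per 500000 over 28 cells, where the other 3 lines had 27.4 to 28.4. *Fzd5* was high in the PdgfrbGFP line, at 2.91 in fibroblasts and 4.61 in base to middle fibroblasts. A single cell held 57.1% of the counts of the latter, and without it these levels were 2.42 and 3.33. *Fzd10* was counted in fibroblasts of the Acta2GFP line and of no other, at 0.360 in all fibroblasts, 0.405 in the pooled base, base to middle and middle clusters and 0.103 in the base to middle cluster. With the other 3 lines at 0, any count in the fourth is flagged.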

How the results depend on the processing

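Under the alternatives 27 log2 fold changes of members changed sign, each of a member that was not called in that comparison. The number of members called changed as follows. For fibroblasts against mural cells it rose from 1 to 2 (*Fzd7* added) with DESeq2 and with plates as samples, and was 1 to 2 when leaving out each line. At the apex it fell from 2 to 1 (*Fzd4* lost) with the replicate block and with limma, rose to 3 (*Fzd2* added) with DESeq2 and with plates, and was 0 to 2 when leaving out each line. For base against middle fibroblasts it rose from 0 to 1 (*Fzd1*) with DESeq2, limma and plates, and was 0 to 1 when leaving out each line. For pericytes it rose to 1 with DESeq2 (*Fzd2*) and with limma (*Fzd7*), and for interstitial SMC it fell to 0 with sums of at least 3 cells and was 0 to 1 when leaving out each line, which was not possible for Acta2GFP. Log2 fold changes that changed sign were, with the replicate block, *Fzd4* in fibroblasts against mural cells (0.37), *Fzd8* at the apex (-1.27), *Fzd3* in base against middle fibroblasts (0.07) and *Fzd8* in interstitial SMC (0.32). With limma they were *Fzd3* (0.041), *Fzd4* (0.32) and *Fzd8* (0.0046) in fibroblasts against mural cells, *Fzd5* (0.0039) and *Fzd8* (-0.065) at the apex, and *Fzd1* (-0.18) and *Fzd9* (-0.032) in pericytes. In pericytes *Fzd8* also changed with DESeq2 (0.075) and without a filter (0.0013), and *Fzd5* with sums of at least 3 cells (3.17). Leaving out each line gave, in fibroblasts against mural cells, -0.59 to 0.54 for *Fzd4* (0.13 without PdgfraGFP), -1.41 to 0.12 for *Fzd5*, -4.57 to 0.75 for *Fzd6* and -2.35 to 0.34 for *Fzd8*. At the apex it gave -0.34 to 2.21 for *Fzd3*, -0.48 to 0.36 for *Fzd7* (0.04 without PdgfrbGFP) and -1.59 to 2.25 for *Fzd8*. In base against middle fibroblasts it gave -0.16 to 0.078 for *Fzd3* and -0.43 to 0.00067 for *Fzd7*, and in pericytes -0.82 to 0.62 for *Fzd8* and -2.99 to 9.99 for *Fzd9*. The cause of these changes was not tested.

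Calls over all genes moved by more than 1.5 times. For fibroblasts against mural cells, 1259 became 2966 with DESeq2, 2515 with plates and 590 with the block, with 639 calls without Acta2GFP and 1.81% of genes called without PdgfrbGFP. At the apex, 1154 became 2439 with DESeq2 and 1835 with plates, with 549 without PdgfraGFP and 721 without PdgfrbGFP, and 1.18% of genes were called without Acta2GFP. The share of genes called for base against middle fibroblasts went from 0.488% to 2.86% with DESeq2, 2.61% with plates, 1.32% with limma, 0.814% with sums of at least 3 cells and 0.773% with the block, and between 0.0709% and 0.813% when leaving out lines. For pericytes 0.819% became 5.57% with DESeq2, 2.95% with limma and 2.70% with plates, and for interstitial SMC 1.01% became 5.14%, 3.71% and 3.84%, and 1.92% with sums of at least 3 cells. Leaving out lines gave 0.226% to 0.974% for pericytes and 0.485% to 1.64% for interstitial SMC. The share of calls that were higher moved with limma from 48.8% to 59.3% (fibroblasts against mural cells), 48.2% to 59.3% (apex), 24.5% to 58.7% (base against middle), 75.8% to 25.9% (pericytes) and 87.2% to 47.3% (interstitial SMC). With DESeq2 it became 53.1% for pericytes and 46.3% for interstitial SMC, and with plates 48.9% for base against middle. Sums of at least 3 cells gave 34.5% for base against middle and 74.9% for interstitial SMC. Leaving out lines gave 36.6% for fibroblasts against mural cells (without PdgfrbGFP), 76.6% and 62.3% for the apex (without Acta2GFP and PdgfraGFP), 10.7% for base against middle (without PdgfrbGFP), 61.9% to 89.8% for pericytes and 73% for interstitial SMC (without PdgfraGFP). Without a filter, 3.81% of genes were called for fibroblasts against mural cells and 3.55% at the apex, since more genes were tested. The block changed no call of a member other than *Fzd4* at the apex, where the correlations that check the pairing by line were 0.0851 to 0.115. Thinning to 50000 counts moved 16 of 20 shares of cells.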
